A study of Homo sapiens with 8 samples.

Results

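The miR-29 family was followed in small RNA libraries of 2 colorectal adenocarcinoma cell lines, DLD1 and HT29, grown as 2D monolayers or as multicellular spheroids (MCS). Its members were taken by name from the table of all libraries, and all 7 mature miRNAs of the family, out of 1780 miRNAs listed, had a row. They are the 3p members hsa-miR-29a-3p, hsa-miR-29b-3p and hsa-miR-29c-3p and the 5p arms hsa-miR-29a-5p, hsa-miR-29b-1-5p, hsa-miR-29b-2-5p and hsa-miR-29c-5p, written below without the species prefix. Both lines are established and unmodified. DLD1 was kept in RPMI and HT29 in DMEM, and RNA was taken on day 6 in every group. Monolayers were started from 35000 DLD1 or 100000 HT29 cells in a flask. Spheroids were started from 7000 DLD1 or 3500 HT29 cells in an agarose-coated round-bottom well. Each line and culture had 2 replicate libraries, and the kit version differed between the lines, so that line, medium and kit cannot be told apart. Cells were measured in bulk, so a change in the share of cells that make a miRNA and a change in its amount per cell cannot be told apart either.

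A miRNA is cut from a hairpin precursor, and either strand of the stem, the 5p or the 3p arm, can be loaded into the silencing complex. The loaded arm finds its messenger RNAs mainly through its seed, the bases from the second to the eighth. The miR-29 family is best known as a set of repressors of extracellular matrix genes, with collagens, fibrillin and elastin among its established targets, and it also represses DNA methyltransferases and the survival factor MCL1. A spheroid differs from a monolayer in that its cells touch one another on all sides and lie in matrix they deposit themselves.

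The mature sequences are printed because the seed decides which members can share targets and because single bases decide how reads are told apart. All 7 were found in the RefSeq table (GRCh38.p14), and they are written 5′ to 3′ with the seed in capitals.
miR-29a-3p: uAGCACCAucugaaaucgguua
miR-29b-3p: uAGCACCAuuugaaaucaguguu
miR-29c-3p: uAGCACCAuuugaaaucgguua
miR-29a-5p: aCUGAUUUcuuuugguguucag
miR-29b-1-5p: gCUGGUUUcauauggugguuuaga
miR-29b-2-5p: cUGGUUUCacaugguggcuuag
miR-29c-5p: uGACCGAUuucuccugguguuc

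The 3p members carry 1 common seed, AGCACCA, and it occurred in no other of the 2370 mature miRNAs of the table. Each 5p arm has a seed of its own, found in 1 mature miRNA each. Counted from 1 at the 5′ end, miR-29c-3p differs from miR-29a-3p by C10U alone. Against miR-29a-3p, miR-29b-3p has the 4 substitutions C10U, G18A, U21G and A22U and 1 extra base at its 3′ end. From its second base on, miR-29b-1-5p differs from miR-29b-2-5p by U10C and U18C, so that the seeds of these arms are the same letters shifted by 1 base. The rule for assigning reads that fit more than 1 mature miRNA is not given in the sources used here, and counts of miR-29c-3p, which lie far below those of miR-29a-3p, are uncertain for that reason.

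The members come from 4 hairpins, shown with both mature arms in capitals to place each arm on its stem.
MIR29A: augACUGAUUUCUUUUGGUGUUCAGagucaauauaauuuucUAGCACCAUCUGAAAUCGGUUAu
MIR29B1: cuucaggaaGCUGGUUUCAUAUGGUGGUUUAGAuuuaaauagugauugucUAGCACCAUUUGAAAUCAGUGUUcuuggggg
MIR29B2: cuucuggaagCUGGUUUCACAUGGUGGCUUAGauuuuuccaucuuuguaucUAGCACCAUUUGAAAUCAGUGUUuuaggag
MIR29C: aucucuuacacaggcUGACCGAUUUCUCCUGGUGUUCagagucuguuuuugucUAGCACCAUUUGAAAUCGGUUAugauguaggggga

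Each hairpin matched GRCh37 exactly at 1 place, on the minus strand. MIR29A lies at chr7:130561506-130561569 and MIR29B1 at chr7:130562218-130562298, with 648 bp between them, and both overlap an exon of the long non-coding RNA LINC-PINT. MIR29C lies at chr1:207975197-207975284 and MIR29B2 at chr1:207975788-207975868, with 503 bp between them, in an exon of the long non-coding RNA MIR29B2CHG. Mature miR-29b-3p is the same molecule from MIR29B1 and MIR29B2, and only the 5p arms show which of these hairpins a miR-29b read came from.

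The libraries held 10495634 to 26211524 miRNA counts. In HT29 the replicate 1 libraries stood apart, with 80.8% (MCS) and 85.9% (2D) of their counts in the 10 most abundant miRNAs, against 63.9% and 68.0% in replicate 2 and 62.9% to 67.4% in DLD1. Levels below are normalized CPM, that is counts scaled to the library total (CPM) and then divided by its upper quartile factor, and changes are log2 fold changes of MCS against 2D with their standard error (SE). A member was called up-regulated or down-regulated at a fold change of at least 1.5 and an adjusted p below 0.05, by the quasi-likelihood test of edgeR, adjusted by Benjamini-Hochberg over all miRNAs that averaged 10 CPM or more in the line. Nothing in the labels says that replicates came from separate cultures, so p-values measure the spread between these libraries. In DLD1, 346 miRNAs were tested, of which 104 were called up-regulated and 40 down-regulated. The split depended on scaling, with 76 up and 63 down under TMM factors, 71 and 65 by DESeq2, 61 and 89 with library totals alone, and 50 and 95 with the upper quartile taken over tested miRNAs.

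The family made up 1.17% and 1.29% of all counts in the DLD1 monolayers and 1.65% and 2.14% in the DLD1 spheroids. In HT29 its share was 0.0486% (replicate 1) and 0.343% (replicate 2) in 2D and 0.0668% and 0.443% in MCS. The HT29 libraries of one replicate number were thus closer to each other than those of one culture. The 3p members held 97.5% to 99.5% of the family's counts in every library, and nearly all of that was miR-29a-3p. By mean level miR-29a-3p ranked 12 of 1492 miRNAs with a count in DLD1 and 53 of 1636 in HT29.

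**Figure D1:**
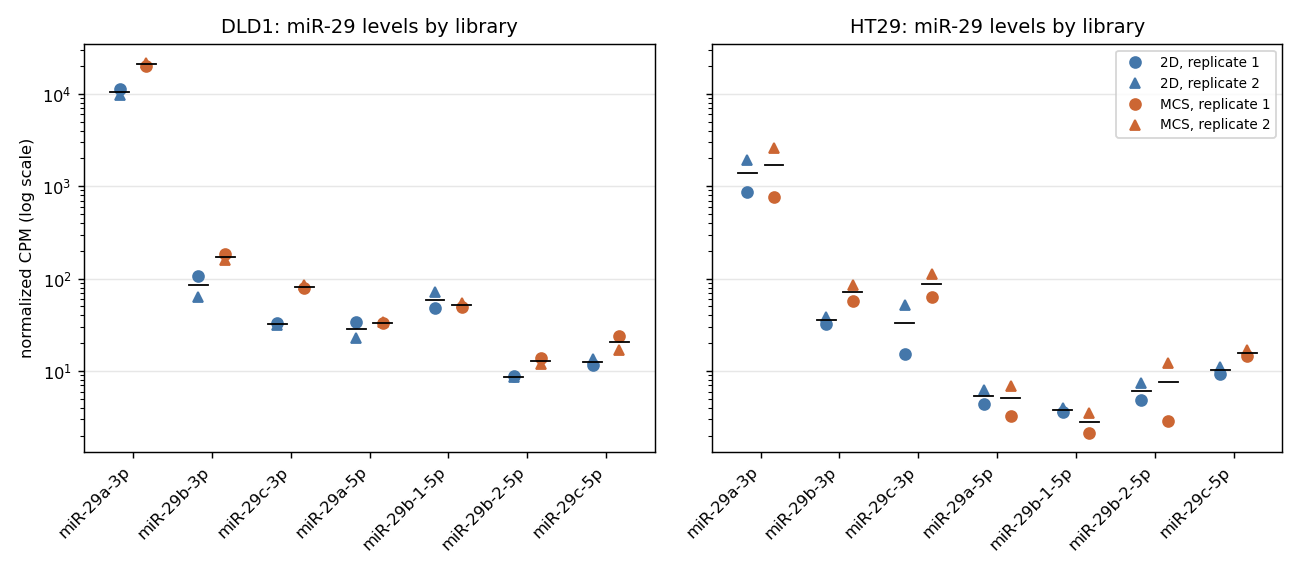
Normalized CPM (log axis) of the 7 members in each library, DLD1 on the left and HT29 on the right; blue marks 2D, orange MCS, circles replicate 1, triangles replicate 2, and bars the mean of 2 libraries. In DLD1 the 3p members are higher in both MCS libraries, with miR-29a-3p at 20251 and 21822 against 11347 and 9798, while in HT29 the miR-29a-3p points of the cultures overlap.

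In DLD1 cells all 3 members with the common seed were up-regulated in MCS, 1.99-fold when summed, and no 5p arm passed the test. The summed 3p level was 11486 and 9893 normalized CPM in 2D (mean 10690 ± 1127 SD, n = 2) and 20516 and 22065 in MCS (21290 ± 1095 SD, n = 2). On the log2 scale its ratio of means was 0.99, and 0.63 with library totals alone. The summed 5p level was 102 and 116 in 2D and 120 and 117 in MCS, a ratio of means of 1.09, or 0.12 on the log2 scale, which turned to -0.23 with library totals alone. Of the 7 members, 7 were tested and 3 were called up-regulated, beside 30.1% of all tested miRNAs. Their median log2 fold change was 0.70 against 0.23 over all tested miRNAs.

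miR-29a-3p, the dominant member, stood at 11347 and 9798 normalized CPM in 2D and at 20251 and 21822 in MCS. Both MCS libraries lay above both 2D libraries, as they did for 45.4% of all tested miRNAs. Its log2 fold change was 0.99 ± 0.28 (SE; edgeR adjusted p = 0.00157). miR-29b-3p, the product of both clusters, stood at 107 and 63.8 in 2D and at 187 and 158 in MCS. Its cultures did not overlap either, although the 2D libraries differed from each other more than those of the other 3p members. With library totals alone they did overlap, with MCS replicate 2 at 118.1 CPM and 2D replicate 1 at 118.7. The log2 fold change of miR-29b-3p was 1.04 ± 0.26 (SE; edgeR adjusted p = 0.000390). miR-29c-3p, made only from the cluster on chromosome 1, stood at 32.8 and 31.6 in 2D and at 78.3 and 84.7 in MCS. Its 2D libraries were the closest to each other among the 3p members, and it had the highest point estimate, a log2 fold change of 1.34 ± 0.29 (SE; edgeR adjusted p = 3.44e-05). With the upper quartile taken over tested miRNAs only miR-29c-3p remained called (0.90), since miR-29a-3p fell short on fold (0.54) and miR-29b-3p on its adjusted p (0.60, adjusted p = 0.182). Without 2D replicate 2 the calls of miR-29a-3p (0.77, adjusted p = 0.271) and miR-29b-3p (0.57, adjusted p = 0.184) were lost, and without MCS replicate 1 that of miR-29b-3p (0.74, adjusted p = 0.0982), while a fit of both lines together, with the HT29 spread pooled in, called none of the members.

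The 5p arms had lower levels than the 3p member of the same letter, except in DLD1 2D replicate 2, where miR-29b-1-5p exceeded miR-29b-3p. miR-29b-1-5p, from chromosome 7, was the most abundant of them in DLD1, with 48.0 and 71.0 normalized CPM in 2D and 49.8 and 54.3 in MCS. Here the cultures overlapped, and its log2 fold change was -0.22 ± 0.29 (SE; edgeR adjusted p = 0.549). miR-29a-5p, from the same cluster, stood at 33.6 and 22.9 in 2D and at 32.9 and 34.0 in MCS. Its cultures overlapped as well, and its log2 fold change of 0.27 ± 0.31 (SE; edgeR adjusted p = 0.483) changed sign with library totals alone (-0.09), with the upper quartile over tested miRNAs (-0.17) and without 2D replicate 2 (-0.12). miR-29c-5p, from chromosome 1, stood at 11.7 and 13.5 in 2D and at 23.9 and 17.1 in MCS. Both MCS libraries were the higher ones, with a log2 fold change of 0.70 ± 0.33 (SE) that did not pass the test (edgeR adjusted p = 0.0727). miR-29b-2-5p, from the same cluster, was the scarcest member, at 8.78 and 8.54 in 2D and 13.8 and 11.9 in MCS. Its MCS libraries were again the higher ones, with a log2 fold change of 0.58 ± 0.35 (SE; edgeR adjusted p = 0.165). With library totals alone, MCS replicate 2 of miR-29c-5p (12.75 CPM) and of miR-29b-2-5p (8.845 CPM) fell below both 2D libraries.

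**Figure D2:**
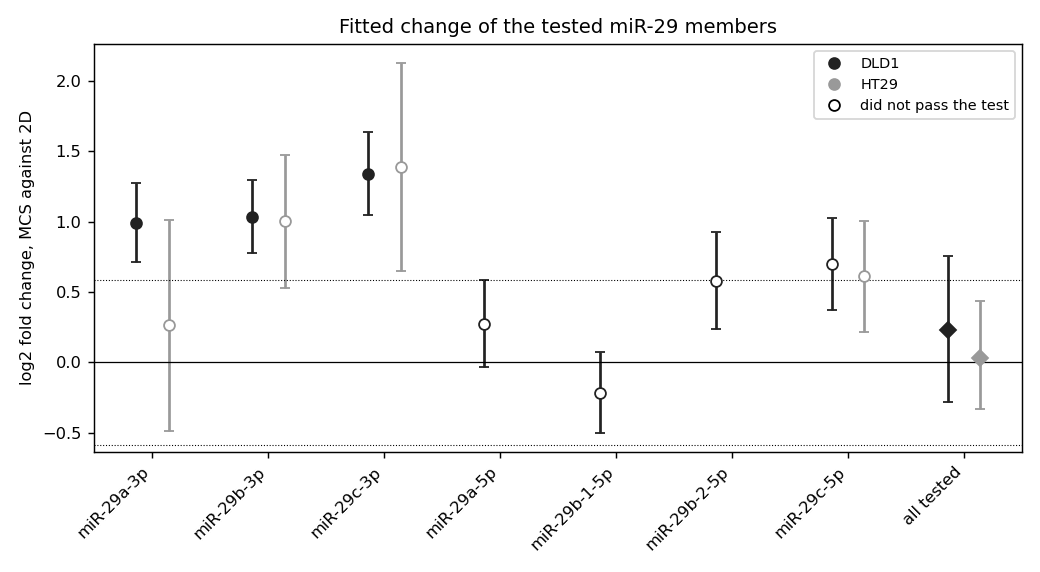
Log2 fold change of MCS against 2D (points) with its standard error (bars) for each tested member in DLD1 (black) and HT29 (grey), with filled points for members that passed the test. Dotted lines mark a 1.5-fold change, and the diamonds give the median and quartiles over all tested miRNAs. Only miR-29a-3p (0.99), miR-29b-3p (1.04) and miR-29c-3p (1.34) in DLD1 are filled, and the HT29 bars are longer.

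In HT29 cells no member passed the test, and no other miRNA did. Of the 7 members, 4 reached the mean of 10 CPM and 0 were called, beside 0.00% of the 301 miRNAs tested with edgeR's quasi-likelihood test. An unadjusted p below 0.05 was reached by 13 miRNAs (4.32%), none of them a member. edgeR's exact test called 5 miRNAs and DESeq2 called 12, none of them a member. With the replicate number as a block, 47 miRNAs were called, miR-29b-3p and miR-29c-3p among them. Their log2 fold changes in that fit were 0.99 (edgeR adjusted p = 0.0141) and 1.53 (edgeR adjusted p = 6.05e-05). The labels do not say whether same-numbered libraries are paired, so the absence of calls holds for the fit without a block. The median log2 fold change of the 4 tested members was 0.81 against 0.03 over all tested miRNAs. The members below the mean of 10 CPM lay lower in a fit without that limit. They were miR-29a-5p (-0.06), miR-29b-1-5p (-0.42) and miR-29b-2-5p (0.31).

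miR-29a-3p stood at 861 (replicate 1) and 1944 (replicate 2) normalized CPM in HT29 2D and at 759 and 2608 in MCS. Here the cultures overlapped, and the replicate 2 library was the higher one in each. Its log2 fold change was 0.26 ± 0.75 (SE; edgeR adjusted p = 0.978), and it became -0.22 without 2D replicate 1, -0.91 without MCS replicate 2, 0.88 without 2D replicate 2, 0.87 without MCS replicate 1 and -0.07 with the upper quartile over tested miRNAs. miR-29b-3p stood at 32.3 and 38.7 in 2D and at 57.2 and 85.0 in MCS. Both MCS libraries were higher than both 2D libraries, as for 17.9% of all tested miRNAs. Its log2 fold change was 1.00 ± 0.47 (SE; edgeR adjusted p = 0.969). miR-29c-3p stood at 15.3 and 51.3 in 2D and at 62.8 and 113 in MCS. Here too the MCS libraries were the higher ones, with a log2 fold change of 1.39 ± 0.74 (SE; edgeR adjusted p = 0.969). This estimate was 0.77 without 2D replicate 1, the lower library, and 2.43 without 2D replicate 2. miR-29c-5p, the only 5p arm tested in HT29, stood at 9.30 and 11.1 in 2D and at 14.6 and 16.7 in MCS. Its cultures did not overlap, with a log2 fold change of 0.61 ± 0.39 (SE; edgeR adjusted p = 0.969). With library totals alone the cultures of miR-29b-3p, miR-29c-3p and miR-29c-5p all overlapped. Their MCS replicate 1 libraries had 42.4, 46.5 and 10.8 CPM, below 64.3, 85.2 and 18.5 in 2D replicate 2.

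Since the HT29 libraries of replicate 1 stood apart, the ratio of MCS to 2D was also taken within each replicate number. It was 0.881 in replicate 1 and 1.34 in replicate 2 for miR-29a-3p. For miR-29b-3p it was 1.77 and 2.19, and for miR-29c-3p it was 4.10 and 2.20. miR-29c-5p gave 1.57 and 1.501. Within both numbers miR-29b-3p, miR-29c-3p and miR-29c-5p were therefore higher in MCS, while miR-29a-3p was lower in one and higher in the other. For miR-29a-3p this depended on scaling. With library totals alone it went from 449.7 CPM in 2D to 562.5 in MCS in replicate 1. In replicate 2 it went from 3228 to 4056. The upper quartile factors were 0.522 (2D) and 0.741 (MCS) in replicate 1 and 1.66 and 1.56 in replicate 2. The share of all tested miRNAs that were higher within both numbers was not counted, so a rise within both is not shown to be particular to the family. Between the HT29 replicates of one culture miR-29a-3p differed by 1.18 (2D) and 1.78 (MCS) on the log2 scale, where the median over all tested miRNAs was 0.64 and 0.72.

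The other 5p arms were too scarce in HT29 to be tested. miR-29a-5p had 4.38 and 6.32 normalized CPM in 2D and 3.26 and 6.96 in MCS. miR-29b-1-5p had 3.65 and 3.999 in 2D and 2.13 and 3.55 in MCS. miR-29b-2-5p had 4.93 and 7.35 in 2D and 2.89 and 12.3 in MCS. Only miR-29b-1-5p kept its cultures apart, with both MCS libraries the lower ones, as for 10.6% of the tested miRNAs. With library totals alone its cultures overlapped, at 1.91 and 6.64 CPM in 2D and 1.58 and 5.53 in MCS. In the replicate 1 libraries the values of these arms rested on 17 to 27 counts each.

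The response of the lines was compared as an interaction over all 8 libraries, which tested 250 miRNAs and called none (10.0% had an unadjusted p below 0.05, and DESeq2 called 21). The log2 difference of HT29 minus DLD1 was -0.77 ± 0.85 (SE) for miR-29a-3p, -0.06 ± 0.53 for miR-29b-3p, 0.01 ± 0.81 for miR-29c-3p and -0.13 ± 0.44 for miR-29c-5p, with edgeR adjusted p of 0.823, 0.988, 0.998 and 0.953. No difference between the lines was detectable for any of these members, and the standard errors leave room for differences of about the size of the DLD1 response. Summed over the 3p members, MCS held 1.99 times the 2D level in DLD1 and 1.25 times in HT29, where the sum follows miR-29a-3p.

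The order of the members by level was compared within each culture, as an order of counts. In DLD1 2D it ran from miR-29a-3p through miR-29b-3p, miR-29b-1-5p, miR-29c-3p, miR-29a-5p and miR-29c-5p to miR-29b-2-5p. There the libraries of miR-29b-3p and miR-29b-1-5p overlapped, as did those of miR-29c-3p and miR-29a-5p. In DLD1 MCS miR-29c-3p stood above miR-29b-1-5p, and no neighbours in the order overlapped. In HT29 2D miR-29a-3p was followed by miR-29b-3p and miR-29c-3p, whose libraries overlapped, and then by miR-29c-5p, miR-29b-2-5p, miR-29a-5p and miR-29b-1-5p. Among the 5p arms there, miR-29b-2-5p and miR-29a-5p overlapped. In HT29 MCS miR-29c-3p had the higher mean of the pair with miR-29b-3p, still with overlap, and the lowest 3 arms overlapped as neighbours.

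The makeup of the 3p pool does not depend on how libraries are scaled, since all members are counted in the same library. miR-29a-3p was 98.7% to 99.0% of the 3p counts in DLD1. In HT29 it was 94.8% and 95.6% in 2D and 86.3% and 93.0% in MCS. Minor members thus took more of the pool in HT29, above all in MCS. miR-29c-3p was 0.285% and 0.319% of the pool in DLD1 2D and 0.382% and 0.384% in DLD1 MCS. In HT29 it was 1.69% (95% Wilson interval 1.36 to 2.08) and 2.52% (2.42 to 2.63) in 2D and 7.14% (6.56 to 7.77) and 4.02% (3.88 to 4.16) in MCS. In each line the MCS libraries both had a larger share of miR-29c-3p than either 2D library. miR-29b-3p was 0.932% and 0.645% in DLD1 2D, 0.910% and 0.718% in DLD1 MCS, 3.55% and 1.903% in HT29 2D and 6.51% and 3.03% in HT29 MCS, with overlapping cultures in both lines. Wilson intervals cover counting error only.

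**Figure D3:**
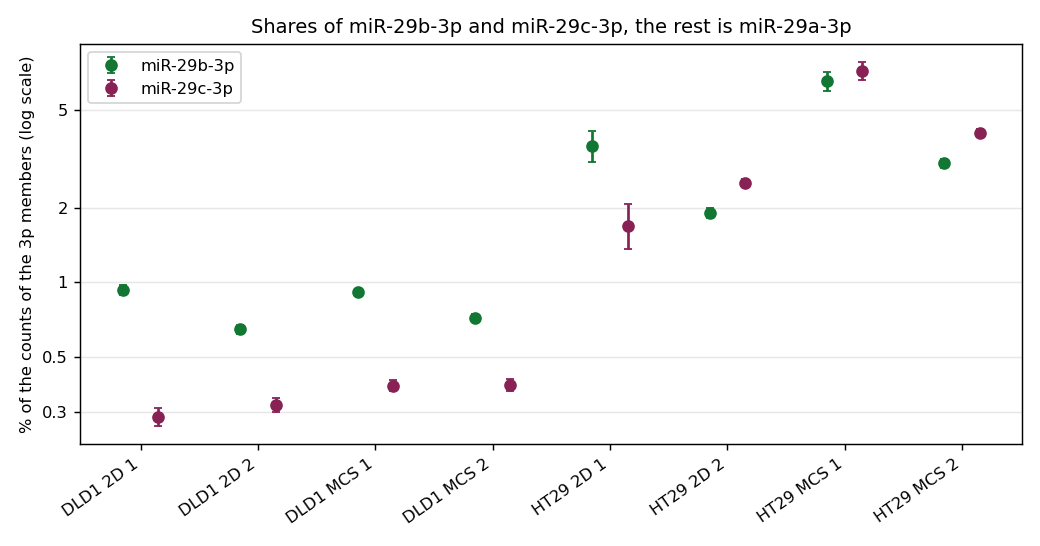
Share of miR-29b-3p (green) and miR-29c-3p (purple) in the summed 3p counts of each library, in % on a log axis, with 95% Wilson intervals as bars. miR-29c-3p lies between 0.285% and 0.384% in DLD1 and between 1.69% and 7.14% in HT29, and it exceeds miR-29b-3p in 3 of the 4 HT29 libraries.

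The ratio of miR-29c-3p to miR-29a-3p, which differ by C10U, was compared by an exact permutation test of log2 ratios. There was 1 read of miR-29c-3p for every 346 and 310 reads of miR-29a-3p in DLD1 2D and for every 259 and 258 in DLD1 MCS. In HT29 there was 1 for every 56.2 and 37.9 in 2D and for every 12.1 and 23.2 in MCS. This ratio was higher in both MCS libraries of each line, by 0.34 on the log2 scale in DLD1 and by 1.46 in HT29. The 2-sided exact p was 0.333 in each line, the smallest that 2 against 2 libraries allow, and 0.0556 over both lines with labels permuted within the line, again the smallest possible, so that this design cannot reach 0.05. For miR-29b-3p to miR-29a-3p the cultures overlapped in both lines, with differences of 0.06 in DLD1 and 0.86 in HT29 (exact permutation p = 0.444 over both lines). The HT29 difference was 0.25 without MCS replicate 1 and 1.47 without MCS replicate 2. Over the 6 ratios examined here and below, the Benjamini-Hochberg adjusted p of the test over both lines was 0.167 for miR-29c-3p to miR-29a-3p and 0.444 for miR-29b-3p to miR-29a-3p.

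The balance of the arms was followed in the same way. For miR-29a there were 338 and 428 reads of the 3p arm for each read of the 5p arm in DLD1 2D and 616 and 642 in DLD1 MCS. In HT29 there were 197 and 308 in 2D and 233 and 375 in MCS. Here the cultures were apart in DLD1, by 0.73 on the log2 scale, and overlapped in HT29, with a difference of 0.26 (exact permutation p = 0.111 over both lines, adjusted 0.167).

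For miR-29b the reads of the 3p arm were set against the sum of both 5p arms. The ratio was 1.89 and 0.802 in DLD1 2D and 2.94 and 2.39 in DLD1 MCS. In HT29 it was 3.77 and 3.41 in 2D and 11.4 and 5.36 in MCS. Both MCS libraries lay above both 2D libraries in each line, by 1.11 in DLD1 and 1.12 in HT29 on the log2 scale (exact permutation p = 0.0556 over both lines, the smallest possible, adjusted 0.167). The DLD1 difference was 1.72 without 2D replicate 1 and 0.49 without 2D replicate 2, and the HT29 difference ranged from 0.58 to 1.67 when a library was left out. In DLD1 2D replicate 2 the 5p arms of miR-29b together held more counts than the 3p arm, the only library where this was so.

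For miR-29c the 3p to 5p ratio was 2.79 and 2.34 in DLD1 2D and 3.27 and 4.95 in DLD1 MCS. In HT29 it was 1.65 and 4.60 in 2D and 4.31 and 6.73 in MCS. Here the cultures were apart in DLD1 (0.66 on the log2 scale) and overlapped in HT29 (0.97), with an exact permutation p of 0.111 over both lines (adjusted 0.167). The HT29 difference was 0.23 without 2D replicate 1 and 1.71 without 2D replicate 2. Among the other hairpins with at least 10 counts of each arm in every library, a set examined after the values of the members were seen, the 3p to 5p ratio lay higher in both MCS libraries for 23.4% of 154 in DLD1 and 10.9% of 110 in HT29. For the ratio of the more to the less abundant arm these shares were 31.8% and 13.6%. Higher ratios in MCS thus occurred among hairpins outside the family too, and the family was not tested against them.

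**Figure D4:**
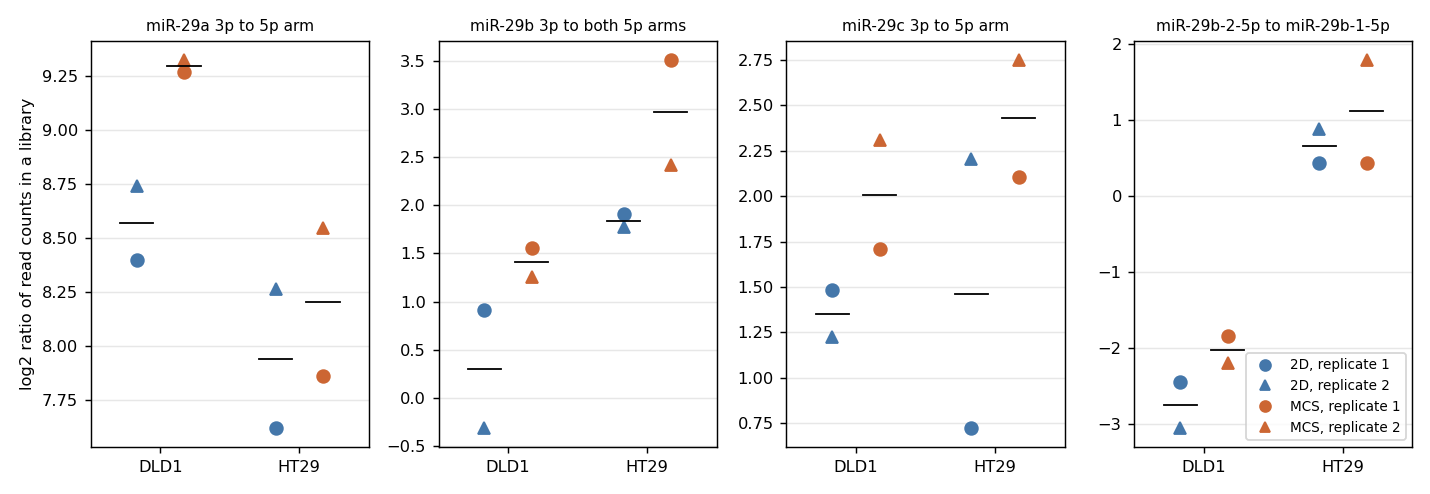
Log2 ratios of read counts within a library (y axes differ between panels) for DLD1 and HT29, with 2D in blue, MCS in orange, circles for replicate 1, triangles for replicate 2 and bars for the mean of 2 libraries. The 3p to 5p ratio of miR-29b is higher in both MCS libraries of each line, by 1.11 and 1.12, and the ratio of miR-29b-2-5p to miR-29b-1-5p is below 0 in all DLD1 and above 0 in all HT29 libraries.

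The 5p arms of miR-29b separate the cluster on chromosome 7 (miR-29b-1-5p) from that on chromosome 1 (miR-29b-2-5p). miR-29b-2-5p made up 15.5% (95% Wilson interval 13.4 to 17.8) and 10.7% (9.55 to 12.1) of their summed counts in DLD1 2D. It made up 21.8% (19.5 to 24.2) and 17.9% (15.7 to 20.4) in DLD1 MCS. In HT29 it made up 57.4% (43.3 to 70.5) and 64.8% (60.5 to 68.9) in 2D and 57.5% (42.2 to 71.5) and 77.6% (73.4 to 81.3) in MCS. Thus the arm from chromosome 7 had more counts in all DLD1 libraries and the arm from chromosome 1 in all HT29 libraries. In HT29 replicate 1 this rested on 47 (2D) and 40 (MCS) counts, and both intervals include equal shares of the arms. Line, medium and kit cannot be told apart here. The log2 ratio of miR-29b-2-5p to miR-29b-1-5p was higher in MCS by 0.73 in DLD1, where the cultures were apart, and by 0.46 in HT29, where they overlapped (exact permutation p = 0.167 over both lines, adjusted 0.200). The HT29 difference was 1.14 without MCS replicate 1 and -0.22 without MCS replicate 2.

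Grouped by cluster, the members that come from chromosome 1 alone were miR-29c-3p, miR-29c-5p and miR-29b-2-5p. In DLD1 all 3 were higher in both MCS libraries, as were 45.4% of all tested miRNAs. With library totals alone only miR-29c-3p was, while miR-29c-5p and miR-29b-2-5p overlapped between the cultures. The log2 fold changes of these 3 members were 1.34, 0.70 and 0.58, of which that of miR-29c-3p passed the test. The members from chromosome 7 alone were miR-29a-3p, miR-29a-5p and miR-29b-1-5p, with log2 fold changes of 0.99, 0.27 and -0.22, of which that of miR-29a-3p passed. In HT29 miR-29c-3p and miR-29c-5p lay above 2D in both MCS libraries, as did 17.9% of all tested miRNAs, and miR-29b-2-5p did not. There miR-29a-3p and miR-29a-5p overlapped, while miR-29b-1-5p lay below, as did 10.6% of the tested miRNAs. With library totals alone the cultures of all these members overlapped in HT29. This grouping was made after the values were seen, and the clusters were not tested against each other.

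The levels in DLD1 were also computed under 5 scalings of the libraries. Relative to the upper quartile over all miRNAs, the median log2 fold change of all tested miRNAs moved by -0.12 with RLE size factors, -0.20 with TMM factors, -0.37 with library totals alone and -0.45 with the upper quartile over tested miRNAs. The members moved down with it and kept their order. Under every scaling the log2 fold changes of the 3p members were above 0, from 0.90 to 1.34 for miR-29c-3p and from 0.54 to 0.99 for miR-29a-3p.

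**Figure D5:**
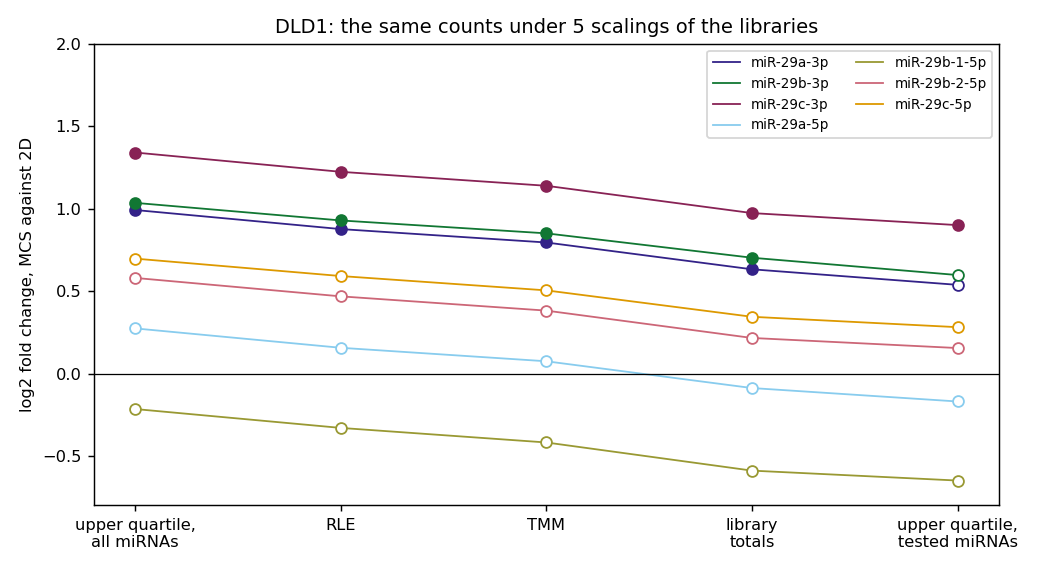
Log2 fold change of MCS against 2D in DLD1 for the 7 members (lines) under 5 scalings of the same counts, with filled points for members that passed the test. The 3p members are filled under 4 scalings, and under the upper quartile over tested miRNAs only miR-29c-3p (0.90) is, while miR-29a-5p goes from 0.27 to -0.17.

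The miRNAs whose pattern was most like that of each 3p member were found over the 8 libraries, as the root mean square difference of log2 levels after removing the mean of each line, among 246 miRNAs outside the family and with at least 10 CPM in both lines. Nearest to miR-29a-3p were miR-107 (0.21), miR-374b-5p (0.24) and miR-1260b (0.25), against a median of 0.77 over all compared. Nearest to miR-29b-3p were miR-27a-3p (0.21), miR-200a-3p (0.26) and miR-141-3p (0.26), against a median of 0.68. Nearest to miR-29c-3p were miR-181a-5p (0.33), miR-19b-3p (0.38) and miR-194-5p (0.45), against a median of 0.95. The 3p members lay farther from one another than from these miRNAs, which were picked as the nearest of all compared. The distance was 0.51 between miR-29a-3p and miR-29b-3p, 0.60 between miR-29a-3p and miR-29c-3p and 0.48 between miR-29b-3p and miR-29c-3p. Each of these lay below the medians of both members concerned. All libraries share their depth and scaling across miRNAs, and these distances include the gap between the HT29 replicates.

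Other miRNAs linked to matrix genes were read from a list of 16, of which 12 were tested in each line. In DLD1, 7 of the 12 were called up-regulated and 2 down-regulated, beside 30.1% and 11.6% of all tested miRNAs, with a median log2 fold change of 0.64. In HT29, 0 were called, with a median of 0.28. The list was chosen with earlier results of these data known, so its counts are not independent of them. It was not tested against the other miRNAs. miR-335-5p, known to target the matrix protein tenascin C, stood at 801 and 792 normalized CPM in DLD1 2D and at 1202 and 1458 in MCS. It was up-regulated there (0.74 ± 0.23 SE, edgeR adjusted p = 0.00414), and in HT29 its log2 fold change was 0.84 ± 0.44 (SE; edgeR adjusted p = 0.969).

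miR-30c-5p, which targets connective tissue growth factor, stood at 1667 and 1718 normalized CPM in DLD1 2D and at 2471 and 2869 in MCS. It was up-regulated in DLD1 (0.66 ± 0.23 SE, edgeR adjusted p = 0.0139), while its log2 fold change in HT29 was 0.27 ± 0.38 (SE; edgeR adjusted p = 0.978). miR-196b-5p had a log2 fold change of -0.29 ± 0.23 (SE) in DLD1 and 0.31 ± 0.54 in HT29, neither past the test (edgeR adjusted p = 0.311 and 0.978). miR-21-5p, an abundant miRNA of carcinomas, had -0.58 ± 0.40 (SE) in DLD1 and -0.21 ± 0.77 in HT29 (edgeR adjusted p = 0.237 and 0.978). The down-regulated members of the list in DLD1 were miR-18a-5p (-0.61) and miR-196a-5p (-0.60), named after their values were seen.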

How the data were processed

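The authors trimmed adapters and random end bases with Cutadapt, aligned reads to GRCh37 (hg19) with Bowtie2 and then to miRBase mature miRNAs, and deposited raw counts of reads for each mature miRNA, neither normalized nor pooled. Strand and multi-mapping rules are not given in the sources used here. Single-library tables and the table of all libraries held the same counts (12572 values compared, 0 differed). A further 15 rows named no miRNA (2590 counts, 0.00988% of 1 library) and were left out.

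Groups came from the labels. Members and lists were chosen with earlier results of these data known. Named were all 7 members, 4 miRNAs of the matrix list and the 3 nearest miRNAs of each 3p member, and both down-regulated miRNAs of that list, added after their values were seen. edgeR 4.0.16 (R 4.3.3) used upper quartile factors over miRNAs with at least 1 count in the line, with a mean of at least 10 CPM for testing, and each line was fitted alone. Its quasi-likelihood fit offers a newer and an earlier method. The default, the earlier method, was run first, and the newer one was adopted after results were seen because it matched an earlier account of these data; with the earlier one and with the robust forms of both, DLD1 gave 143 to 146 calls, HT29 0, and the same 3 members were called. Scripts were tested on simulated data. DESeq2 1.42.0, other scalings, filters, a replicate block and leaving out libraries were the alternatives.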

Additional observations from a re-analysis of the deposited data

How the results depend on the processing

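The DLD1 count of 144 calls fell to 31 with all libraries in 1 fit and ranged from 92 (without 2D replicate 2) to 129 when a library was left out. The HT29 count of 0 became 5 by the exact test, 12 by DESeq2, 3 without a filter, 3 in 1 fit and 0 to 2 without a library. The count of differences between the lines, 0, became 1 with TMM factors, 21 by DESeq2 and 1 without a filter. In DLD1, 1 fit left miR-29a-3p at 0.97 (adjusted p = 0.394), miR-29b-3p at 1.01 (0.140) and miR-29c-3p at 1.32 (0.208), and with at least 10 CPM in every library miR-29c-5p was called (0.70, adjusted p = 0.0285). The cause was not tested.

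Signs turned for miR-29a-5p in DLD1 with library totals (-0.088) and the upper quartile over tested miRNAs (-0.17), and without a library it ranged from -0.12 to 0.42. They turned for miR-29a-3p in HT29 with the latter (-0.071), and without a library it ranged from -0.91 to 0.88. The difference between the lines turned for miR-29b-3p with library totals (0.41) and DESeq2 (0.15), for miR-29c-3p with TMM factors (-0.10) and for miR-29c-5p with library totals (0.25) and DESeq2 (0.066). Without a library the log2 ratio difference ranged from -0.082 to 0.61 for the miR-29a arms in HT29, from -0.22 to 1.14 for miR-29b-2-5p to miR-29b-1-5p in HT29 and from -0.21 to 0.33 for miR-29b-3p to miR-29a-3p in DLD1. The summed 3p change in DLD1 was 0.63 with library totals.

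Same-numbered libraries share only a number in the labels, and with 2 pairs it is open whether the numbers pair them. Their deviations from the culture means correlated across miRNAs at 0.373 in DLD1 and 0.787 in HT29. With the replicate number as a block, HT29 gave 47 calls, miR-29b-3p (0.99, adjusted p = 0.0141) and miR-29c-3p (1.53, adjusted p = 6.05e-05) among them, while in DLD1 the block changed no call of a member. With 2 libraries a group, precision is set by their spread rather than by depth, except for the 5p arms of HT29 replicate 1.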
